A study of Mus musculus with 4 samples.

Results

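The genes described here build peroxisomes or work in them: 12 peroxins, which assemble the organelle and import its enzymes, and 21 transporters and enzymes. They were chosen by gene name, with earlier results of these libraries known, and make up 33 of 16846 measured genes. All 33 carry the KEGG pathway Peroxisome in the annotation columns of the authors' deposited table, which has it on 83 rows, 50 of them other genes. Which values entered the choice is not recorded, so the counts and medians over the 33 genes in every comparison below are descriptions, and nothing is concluded from them. Of the 33 genes, 32 passed a filter on low counts, and only Abcd2 did not.

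RNA was sequenced from HT22 cells, an immortalised line derived from mouse hippocampal neurons. The first pair of groups was cells carrying a short hairpin RNA (shRNA) against the long noncoding RNA Ntoco (knockdown), set against cells carrying a control shRNA. The second pair was cells carrying a vector that expresses Ntoco (overexpression), set against cells carrying the empty vector. The study linked Ntoco to ferroptosis, an iron-dependent death driven by lipid peroxides, and used these cells to look for pathways that follow Ntoco. Every group carried an shRNA or a vector, and the labels name no treatment, time or promoter. Each group had 2 libraries under 1 listed sample. The labels do not call them separate cultures, and p-values therefore reflect only how far libraries differ, which may be technical. Columns name the vector pcDNA while the label writes Lv, so whether a plasmid or a lentivirus was used is uncertain. All groups are labelled HT22 as cell line, although the titles number the cells HT22 to HT25.

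Peroxisomes are single-membrane organelles that shorten very long and branched fatty acids, start the synthesis of ether lipids and break down hydrogen peroxide. Their proteins are made in the cytosol: one set of peroxins inserts membrane proteins, another carries enzymes inside and returns the receptors to the cytosol with the help of ubiquitin. In brain, peroxisomes supply plasmalogens, the ether lipids of myelin and neuronal membranes, and inherited loss of peroxins causes severe disease of the nervous system. Polyunsaturated ether lipids are also known substrates of the lipid peroxidation that ends in ferroptosis.

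The libraries held 18452588 to 19859041 counts, of which the 33 genes took 0.148 to 0.184%. There were 0 rows named Ntoco, and the targeted RNA could not be used to check the group labels. Libraries did not sort cleanly by group: by the median absolute log2 difference over 12115 tested genes, 2 of 8 libraries lay nearest to their own partner, and over the 32 peroxisomal genes 1 of 8 did. The knockdown libraries stood farthest apart, with a chi-square per gene of 156 against 62.1 in the shRNA control, 83.8 in the overexpression and 103 in the empty vector group, where 1 would be counting noise. Of 16 neuronal markers 10 had rows, and these summed to 7.88 to 15.3 FPKM per library. Camk2a (348 to 825 counts) and Eno2 (218 to 501) made up most of that sum, while Tubb3, Map2, Nefl, Nefh, Stmn2 and Slc17a7 had 0 to 3 counts, Gap43 1 to 6 and Syp 10 to 20. Of 10 fibroblast and meningeal markers 9 had rows, with a sum of 1111 and 379.8 FPKM in knockdown and 739 and 794 FPKM in shRNA control libraries, and 500.7 and 467 FPKM in overexpression and 368 and 549 FPKM in empty vector libraries. Col1a2, Col1a1 and Fn1 carried that sum, while Lum had 0 counts, Dcn 0 to 1, Postn 4 to 17 and Col3a1 2 to 60. The part of these differences in the results below was not tested.

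The peroxisomal genes were expressed over a wide range. FPKM, a level per gene length and library size, averaged above 10 over the 8 libraries in 23 of the 33 genes and between 1 and 10 in 8. Gnpat, the acyltransferase that starts ether lipid synthesis, was at 41.7 ± 4.90 FPKM (SD over 8 libraries), Ech1, a dienoyl-CoA isomerase, at 41.5 ± 13.3 FPKM, and Pex14, part of the docking site for import receptors, at 40.05 ± 10.01 FPKM. These 3 highest levels differed by less than their spread. At the low end Pex26, the membrane anchor of the receptor-recycling ATPases, had 1.71 ± 0.333 FPKM and Ehhadh, the L-bifunctional enzyme of beta-oxidation, 0.950 ± 0.414 FPKM. Abcd2, a transporter of very long chain acyl-CoA, had 3 and 1 counts in knockdown and 2 and 2 in shRNA control libraries, and 3 and 0 counts in overexpression and 2 and 2 in empty vector libraries. Those counts do not rise above the 3 counts taken as the detection floor, so Abcd2 was not detectable at this depth. The highest level was 43.9-fold above the lowest among the 32 tested genes.

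**Figure D1:**
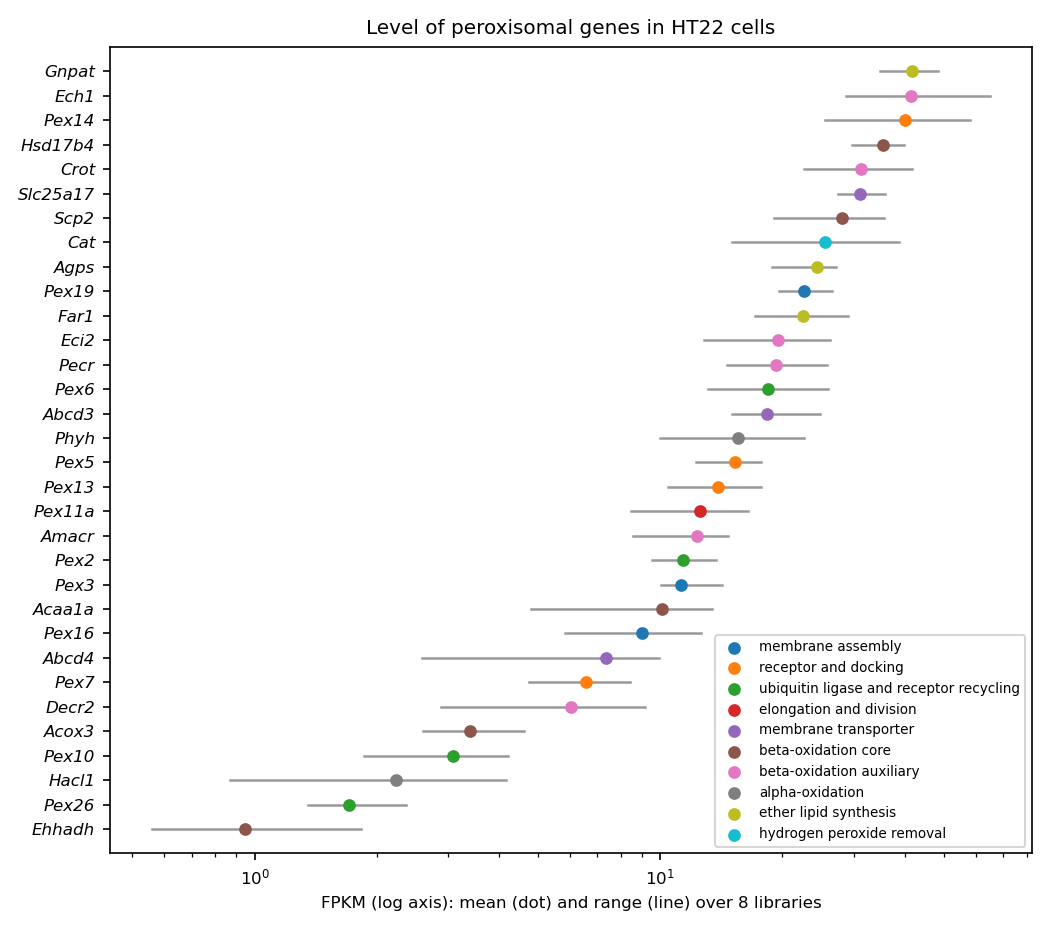
Mean FPKM over the 8 libraries (dots, log axis) with the lowest and highest library (lines) for the 32 tested peroxisomal genes, ordered by level and coloured by role. Gnpat, Ech1 and Pex14 lie near 40 FPKM and Ehhadh lies below 1; Abcd2, at 0 to 3 counts, is left out.

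Levels within a gene varied less than levels between genes. CPM, the count scaled by library size and TMM factor, was used to compare libraries for the same gene. The highest library exceeded the lowest by a median factor of 1.82 over the 32 genes, with 10 genes above 2 and 7 below 1.5. Hsd17b4, the D-bifunctional enzyme that takes most very long chain and branched substrates through beta-oxidation, varied least, by 1.26-fold, between 83.3 and 104.9 CPM. Hacl1, a lyase of alpha-oxidation, varied most, by 4.47-fold. Much of the range lay within groups: the 2 libraries differed by up to 2.57-fold in knockdown (Cat) and 1.55-fold in the shRNA control (Phyh), and by up to 1.86-fold in overexpression (Hacl1) and 3.14-fold in the empty vector (Abcd4).

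**Figure D2:**
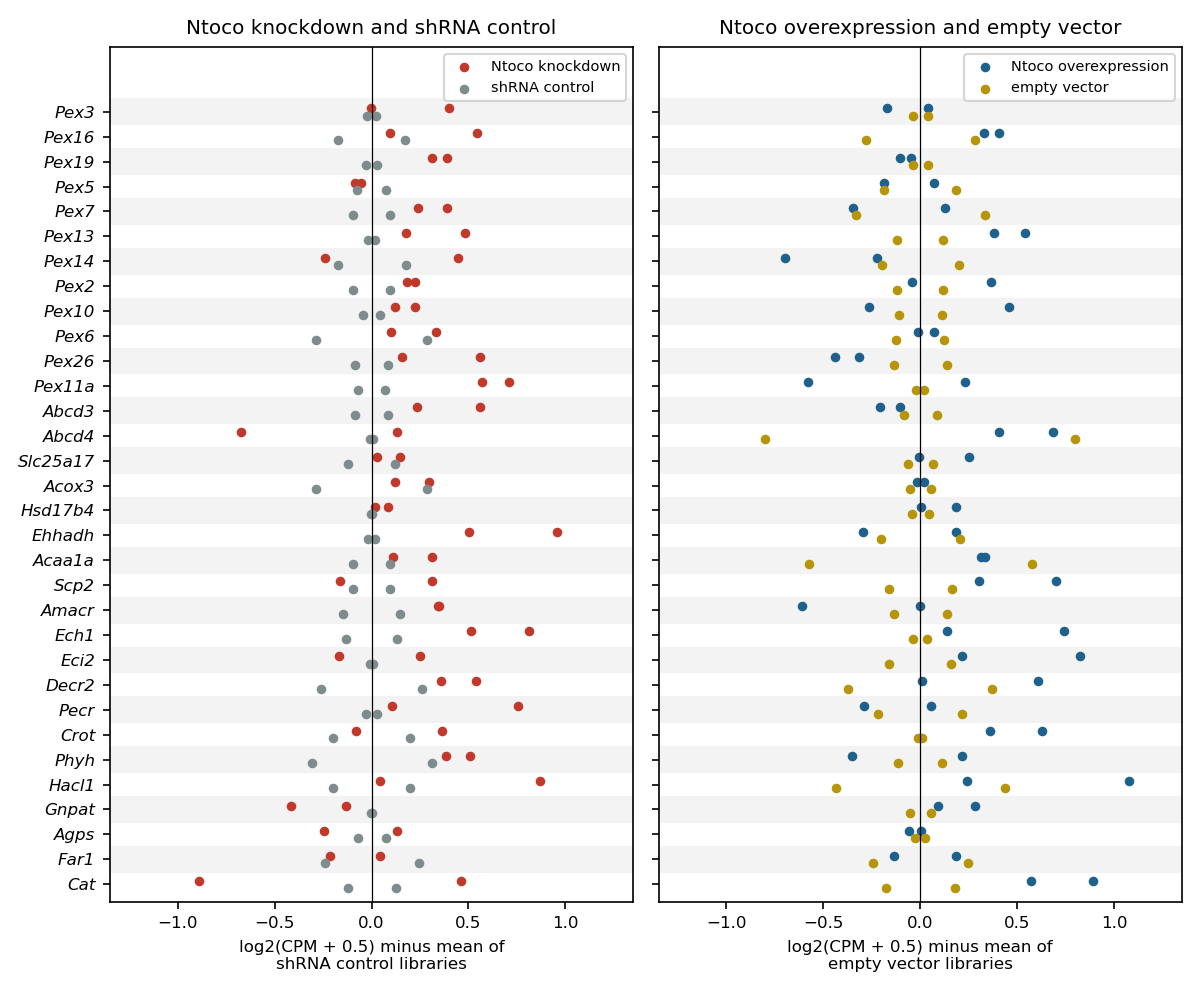
log2(CPM + 0.5) of each tested peroxisomal gene in each library (dots), minus the mean of the control libraries of that pair: knockdown (red) and shRNA control (grey) on the left, overexpression (blue) and empty vector (yellow) on the right. The 2 libraries of a group often differ, as in Cat for the knockdown (96.7 and 37.7 CPM).

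In the knockdown, most peroxisomal genes lay slightly above the shRNA control, and no gene passed the test. The edgeR quasi-likelihood test with Benjamini-Hochberg adjustment called 0 of the 32 genes at an adjusted p of 0.05 (lowest 0.992), against 0% of all 12115 genes tested. At an unadjusted p under 0.05 there was 1 gene, Ech1, higher, and 0 lower, against 1.51% and 1.61% of all genes, and DESeq2 called 0 of the 32 genes and 15 of all genes. The log2 ratio was above 0 in 26 genes and below 0 in 6, with a median of 0.21 against 0.0055 over all genes tested. Both knockdown libraries lay above both control libraries in 16 of the 32 genes and below them in 1, against 15.1% and 14.1% of all genes. Leaving out shRNA control library 2 moved the median to 0.32. Of the 16 higher genes, Pex11a, Pex19, Pex26, Abcd3, Amacr and Pecr were also higher in empty vector than in shRNA control libraries, without overlap. Pex10, Hsd17b4 and Ech1 were lower there, and the others overlapped. Between the controls 24.6% of all genes were higher and 26.5% lower without overlap. The part of this gap between controls in the knockdown ratios was not tested.

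Ech1 moves the double bonds of unsaturated fatty acids so that beta-oxidation can go on. The gene (Entrez Gene 51798) lies on GRCm38 chromosome 7 between 28825338 and 28832239. Its level was 72.3 and 58.8 CPM in the knockdown libraries and 37.4 and 44.9 CPM in the shRNA control libraries. The groups did not overlap, and the log2 ratio was 0.67 (SE 0.25), with an edgeR adjusted p of 0.992. Pex11a, which elongates the peroxisomal membrane before division (Entrez Gene 18631, chromosome 7 between 79735957 and 79743131), was at 37.7 and 34.2 CPM in knockdown and 21.7 and 24.0 CPM in control libraries. Here too both knockdown libraries were higher, with a log2 ratio of 0.65 (SE 0.28). Empty vector libraries, in which Ntoco was not targeted, had 30.0 and 30.9 CPM of Pex11a. They too lay above both shRNA control libraries, with a log2 ratio of 0.41. Ehhadh (Entrez Gene 74147, chromosome 16 between 21761285 and 21787834) was at 3.71 and 5.27 CPM in knockdown and 2.51 and 2.44 CPM in control libraries, a log2 ratio of 0.86 (SE 0.43) at a low level. Of the 32 genes these 3 alone had non-overlapping groups and an absolute log2 ratio of at least 0.5 in this comparison.

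Ehhadh, Pex11a and Ech1 are known in rodent liver as targets of PPARs, nuclear receptors that bind a pair of AGGTCA motifs with 1 base between them. RefSeq (GRCm38.p6) promoter windows, 250 bases before to 50 after the start, were therefore searched on both strands for AGGTCA, for 2 copies of it in the same direction with 1 base between, and for the GC box GGGCGG. The windows of Ech1 (chr7:28825088-28825387, + strand) and Pex11a (chr7:79743082-79743381, - strand) are printed because these genes had the smallest p in the knockdown, with GC boxes in capitals on either strand.
Ech1: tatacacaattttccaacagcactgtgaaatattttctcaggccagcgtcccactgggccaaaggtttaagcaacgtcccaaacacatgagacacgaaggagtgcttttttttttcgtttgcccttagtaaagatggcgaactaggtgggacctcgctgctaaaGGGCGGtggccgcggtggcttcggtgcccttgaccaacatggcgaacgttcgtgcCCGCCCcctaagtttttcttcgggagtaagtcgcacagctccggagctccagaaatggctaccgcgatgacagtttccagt
Pex11a: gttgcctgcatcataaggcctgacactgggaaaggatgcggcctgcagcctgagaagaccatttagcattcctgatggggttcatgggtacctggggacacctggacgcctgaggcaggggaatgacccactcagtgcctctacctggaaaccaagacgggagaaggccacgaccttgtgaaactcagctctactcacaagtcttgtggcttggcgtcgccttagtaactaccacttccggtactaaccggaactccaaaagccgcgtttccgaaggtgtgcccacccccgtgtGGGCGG
Neither window holds an AGGTCA or its complement. Ech1 has GC boxes with first bases at -86 and -31 from the start, and Pex11a has one at 45. Among 31 windows matched to 27 of the 33 genes, the paired motif was in 0, against 0.0323% of windows of the genes tested. A single AGGTCA was in 3 (9.68%), against 12.8%. A GC box was in 24 (77.4%), against 61.0%. These are matches of letters in a short window and do not show binding. The paired motif is so rare in such windows that 0 of 31 says nothing about PPAR sites. Sites with other letters or outside the windows were not searched.

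Peroxins were mostly on the higher side in the knockdown. Of the 12, 11 had a log2 ratio above 0, and 7 had both knockdown libraries above both controls, against 15.1% of all genes. Among the 3 that assemble the membrane, Pex19, the chaperone that brings membrane proteins to the organelle, had 75.5 and 79.5 CPM in knockdown and 61.9 and 59.4 CPM in control libraries (log2 ratio 0.35, SE 0.17). Those 4 values form separate pairs with little spread inside each. Pex3, the docking receptor of Pex19, and Pex16, which helps to recruit Pex3, overlapped between the groups. Among the import receptors and their docking site, Pex7, the receptor for enzymes with an amino-terminal signal, and Pex13, a docking protein, did not overlap. Pex5, the receptor for most enzymes, was the 1 peroxin below 0, at 54.3 and 55.5 CPM in knockdown and 60.8 and 54.6 CPM in control libraries, with overlap. Pex14 ran from 67.7 to 109.2 CPM between the knockdown libraries, around the 70.8 and 90.4 CPM of the controls. In the group that tags and recycles the receptors, the ubiquitin ligases Pex2 and Pex10 and the anchor Pex26 did not overlap, while the ATPase Pex6 did.

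The beta-oxidation enzymes had log2 ratios above 0 in all 11 genes tested in the knockdown. In the core pathway, Hsd17b4, Ehhadh and the thiolase Acaa1a did not overlap, whereas the branched-chain oxidase Acox3 and the thiolase Scp2 did. The separation was small in Hsd17b4, at 104.9 and 100.3 CPM in knockdown and 99.3 and 98.7 CPM in control libraries. Acaa1a has a close paralog, Acaa1b, with 11 to 46 counts in the 8 libraries, so its reads may be split between the 2 genes. Of the 6 auxiliary enzymes, Ech1, the racemase Amacr and the reductases Decr2 and Pecr did not overlap, whereas the isomerase Eci2 and the carnitine octanoyltransferase Crot did. Phyh, the hydroxylase that opens alpha-oxidation of phytanic acid, had 29.2 and 31.9 CPM in knockdown and 17.9 and 27.8 CPM in control libraries, which do not overlap. Hacl1 overlapped. The transporter Abcd3, which brings branched and long dicarboxylic acyl-CoA into the organelle, had 68.2 and 85.8 CPM in knockdown and 54.7 and 61.4 CPM in control libraries (log2 ratio 0.41, SE 0.20). Both knockdown libraries were higher, while the cofactor carrier Slc25a17 and Abcd4, a relative known to act at the lysosome in cobalamin transport, overlapped.

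In ether lipid synthesis all 3 genes had log2 ratios below 0 in the knockdown. Gnpat (Entrez Gene 14712, chromosome 8 between 124863033 and 124890057) was at 126.9 and 104.2 CPM in knockdown and 138.9 and 139.7 CPM in control libraries, a log2 ratio of -0.27 (SE 0.18). Without knockdown library 1 the ratio was -0.43, and without knockdown library 2 it was -0.13. Gnpat was the 1 gene of the 32 with both knockdown libraries below both controls. Agps, which exchanges the acyl for an alkyl chain, had 135.7 and 176.3 CPM in knockdown and 169.3 and 153.1 CPM in control libraries. Far1, the reductase that supplies the fatty alcohol, had 94.1 and 112.4 CPM in knockdown and 129.1 and 92.1 CPM in control libraries. Both overlapped. Cat, the catalase that removes hydrogen peroxide, was at 96.7 and 37.7 CPM in knockdown, on either side of the 76.4 and 64.3 CPM of the controls.

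**Figure D3:**
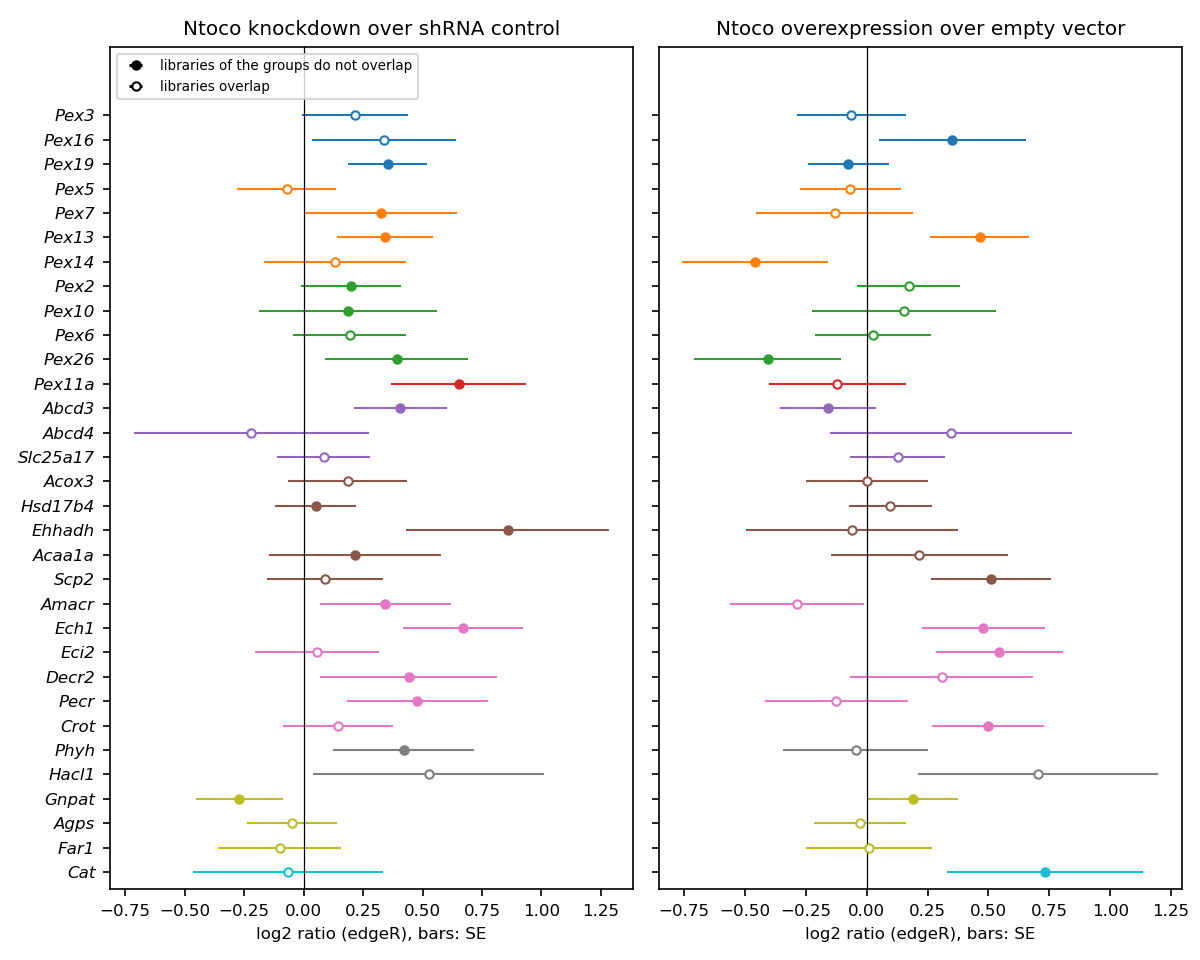
edgeR log2 ratio with its standard error for each of the 32 tested peroxisomal genes, grouped by role, in knockdown against shRNA control and in overexpression against empty vector (2 libraries each). Filled points mark genes whose libraries do not overlap between the groups, 17 in the knockdown and 12 in the overexpression. Of all genes, 15.1% were higher and 14.1% lower without overlap in the knockdown, and 24.3% and 23.1% in the overexpression. None of the 32 genes passed an adjusted p of 0.05.

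With Ntoco overexpressed, 14 of the 20 enzymes and transporters and 5 of the 12 peroxins had a log2 ratio above 0 against the empty vector, and no gene passed the test. The edgeR test called 0 of the 32 genes (lowest adjusted p 0.598), against 0% of all genes. At an unadjusted p under 0.05 there were 0 of the 32 genes in either direction, against 3.53% higher and 4.09% lower of all genes, and DESeq2 called 0 of the 32 and 1 of all genes. The log2 ratio was above 0 in 19 genes and below 0 in 13, with a median of 0.061 against -0.0059 over all genes tested. Both overexpression libraries lay above both vector libraries in 8 genes and below them in 4, against 24.3% and 23.1% of all genes. The median log2 ratio was -0.065 in the 12 peroxins and 0.16 in the 20 other genes. The median over the 32 genes was 0.21 without overexpression library 2, 0.015 without overexpression library 1 and 0.15 without vector library 2. With no filter on low counts, which adds Abcd2, the median over 33 genes was 0.025.

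Cat (Entrez Gene 12359, chromosome 2 between 103453904 and 103485153) was at 84.5 and 67.7 CPM in overexpression libraries and 40.05 and 51.5 CPM in vector libraries. The groups did not overlap, with a log2 ratio of 0.73 (SE 0.40) and an edgeR adjusted p of 0.599. Scp2, whose longer product is a thiolase for branched chains and whose shorter product carries sterols (Entrez Gene 20280, chromosome 4 between 108043830 and 108144971), was at 104.0 and 79.0 CPM in overexpression and 56.9 and 71.5 CPM in vector libraries. Its log2 ratio was 0.51 (SE 0.25), without overlap, and 0.30 without overexpression library 1. Eci2, which moves the double bond of enoyl-CoA (Entrez Gene 23986, chromosome 13 between 34977748 and 35027115), was at 81.6 and 53.4 CPM in overexpression and 41.1 and 51.4 CPM in vector libraries. The separation of Eci2 was narrow, and its log2 ratio of 0.55 (SE 0.26) became 0.21 without overexpression library 1 and 0.82 without overexpression library 2. Crot, which prepares shortened fatty acids for export to mitochondria, had 183.4 and 152.2 CPM in overexpression and 117.8 and 119.5 CPM in vector libraries, again without overlap (log2 ratio 0.50, SE 0.23). In shRNA control libraries Scp2 had 85.2 and 74.6 CPM, Eci2 60.7 and 61.5 CPM and Crot 137.3 and 180.7 CPM. Cat, Scp2, Eci2, Crot, Ech1 and Gnpat were lower in the empty vector than in the shRNA control without overlap, as were 26.5% of all genes. Pex13 and Pex16, the other genes higher in overexpression without overlap, overlapped between the controls. The part of this gap between controls in the ratios was not tested.

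Cat and Scp2 are also 2 of the 3 genes whose promoter window holds an AGGTCA, which is why their windows are shown (Cat, chr2:103485104-103485403, and Scp2, chr4:108118498-108118797, both - strand). AGGTCA motifs and GC boxes are in capitals. The Scp2 window lies inside the gene, at an internal start.
Cat: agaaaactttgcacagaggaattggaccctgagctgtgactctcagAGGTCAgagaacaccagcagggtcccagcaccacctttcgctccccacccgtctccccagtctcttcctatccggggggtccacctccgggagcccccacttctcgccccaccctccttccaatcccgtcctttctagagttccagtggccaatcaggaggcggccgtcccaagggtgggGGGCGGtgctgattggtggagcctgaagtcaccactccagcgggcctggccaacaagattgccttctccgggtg
Scp2: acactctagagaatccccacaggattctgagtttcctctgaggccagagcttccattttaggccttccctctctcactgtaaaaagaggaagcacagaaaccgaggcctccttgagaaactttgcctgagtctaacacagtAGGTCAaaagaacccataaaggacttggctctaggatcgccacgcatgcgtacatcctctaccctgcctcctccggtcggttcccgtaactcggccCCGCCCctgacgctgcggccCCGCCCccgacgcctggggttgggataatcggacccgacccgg
The AGGTCA begins at -204 in Cat and at -109 in Scp2, and neither has the paired form. GC boxes begin at -24 in Cat and at -13 and 8 in Scp2. The third gene with this motif is Phyh, whose groups overlapped in this comparison.

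Pex13 (Entrez Gene 72129, chromosome 11 between 23646843 and 23665883) was at 54.8 and 48.9 CPM in overexpression and 40.7 and 34.4 CPM in vector libraries. Its groups did not overlap (log2 ratio 0.46, SE 0.20). Pex14, its partner at the docking site (Entrez Gene 56273, chromosome 4 between 148960535 and 149099843), was at 51.4 and 71.6 CPM in overexpression and 96.2 and 72.8 CPM in vector libraries. Both overexpression libraries were lower, one of them by little (log2 ratio -0.46, SE 0.30). The ratio of Pex14 was -0.24 without overexpression library 1 or without vector library 1, and -0.71 without overexpression library 2. In GENCODE M21, 28.3% of the exon bases of Pex14 lie opposite an antisense gene with no row in the table, and the strand setting of the counting is not given in the sources used here, so its level is uncertain. In all, 10 of the 33 genes share exon bases with a gene on the opposite strand. Hacl1 also shares 31.1% of its exon bases with Gm49387, a gene on the same strand with no row, so its level is uncertain too. Pex19, Pex26 and Abcd3 were the other genes with both overexpression libraries below the vector, with log2 ratios of -0.076 (SE 0.17), -0.41 (SE 0.30) and -0.16 (SE 0.20). Pex16, Ech1 and Gnpat were higher in both overexpression libraries. Pex11a overlapped, at 35.8 and 20.2 CPM in overexpression and 30.0 and 30.9 CPM in vector libraries, and so did Ehhadh, Agps and Far1.

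**Figure D4:**
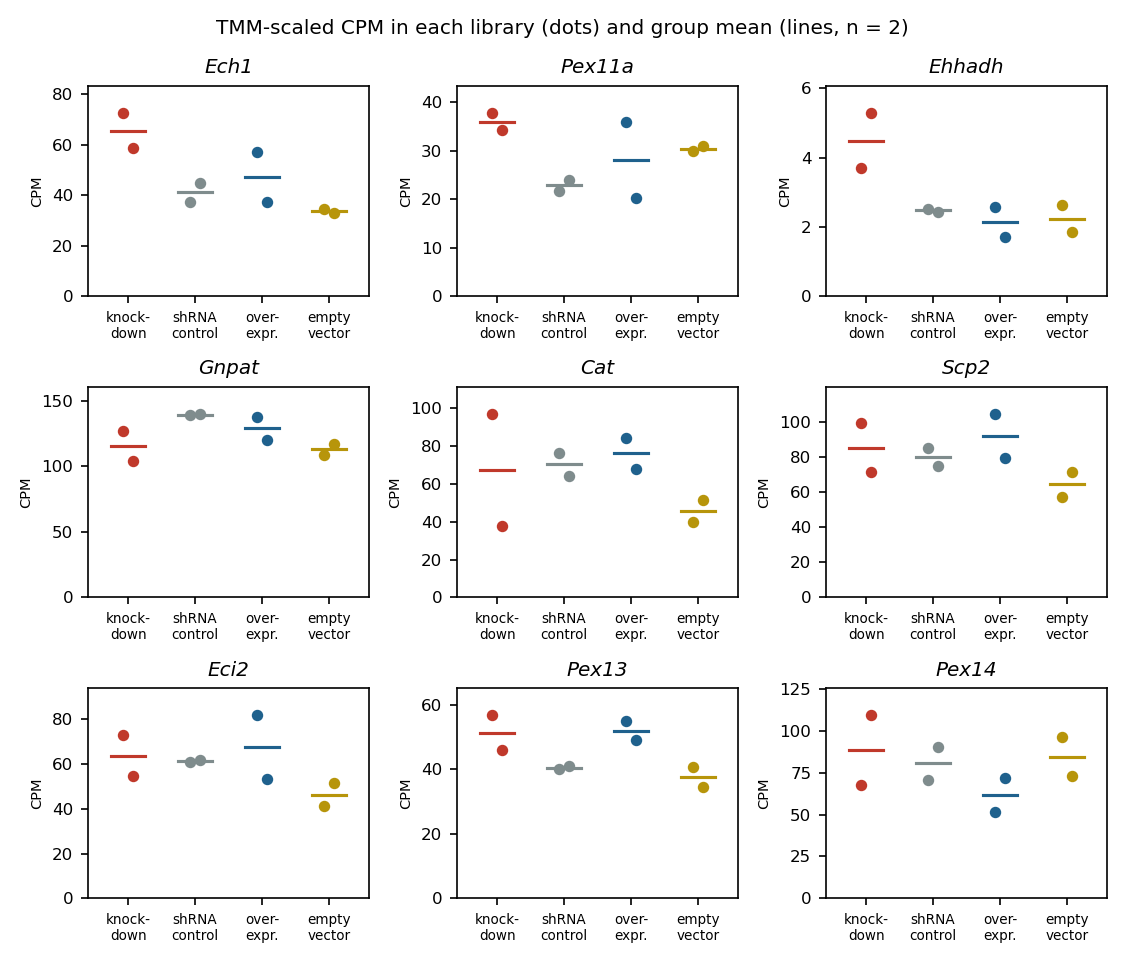
TMM-scaled CPM in each library (dots) with group means (lines, n = 2) for the peroxisomal genes named by size or p, with knockdown left of the shRNA control and overexpression left of the empty vector. Ech1 is highest in both knockdown libraries (72.3 and 58.8 CPM), and Cat separates overexpression from empty vector while its knockdown libraries lie far apart.

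The knockdown and overexpression comparisons share no libraries and can be set side by side. Both log2 ratios were above 0 in 15 of the 32 genes and below 0 in 2, while 11 were above 0 in the knockdown only and 4 in the overexpression only. Pearson's r across the 32 genes was -0.16 and Spearman's rho -0.24, against -0.25 and -0.20 over all genes tested; genes of 1 library share its depth and are not independent. Ech1 and Pex13 were higher without overlap in both comparisons (6.25% of the 32 genes, against 2.76% of all genes). Pex19, Pex26 and Abcd3 were higher in the knockdown and lower in the overexpression (9.38%, against 2.89%), and Gnpat was the reverse (3.12%, against 3.66%). In 9 genes the libraries overlapped in both (28.1%, against 35.4%). Between the controls, Pex19, Pex26 and Abcd3 were higher and Gnpat lower in the empty vector, without overlap. Of all genes, 24.6% were higher and 26.5% lower between the controls. The part of this gap between controls in the opposite directions of these genes was not tested. The contrast of the overexpression effect minus the knockdown effect called 0 of the 32 genes by edgeR (lowest adjusted p 0.650), against 0% of all genes, and 0 by DESeq2, which called 14 of all genes. At an unadjusted p under 0.05 there were 0 of the 32 genes, against 3.57% of all genes above 0 and 3.35% below. The largest negative differences were in Ehhadh (-0.92, SE 0.61), Pex26 (-0.80, SE 0.43) and Pex11a (-0.77, SE 0.40), and the largest positive one in Cat (0.80, SE 0.57).

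The 2 control groups, in which Ntoco was not targeted, were compared in the same way. The edgeR test called 0 of the 32 genes in empty vector against shRNA control (lowest adjusted p 0.411), against 0% of all genes. At an unadjusted p under 0.05 there were 0 of the 32 genes, against 6.45% higher and 6.1% lower of all genes, and DESeq2 called 0 of the 32 and 281 of all genes. The median log2 ratio was -0.18, and -0.066 without shRNA control library 2. Both vector libraries lay above both shRNA control libraries in 8 genes and below them in 10, against 24.6% and 26.5% of all genes, which is near the background. With the total count in place of TMM factors these counts were 7 and 13, against 20.8% and 30.3% of all genes. Cat had 40.05 and 51.5 CPM in vector and 76.4 and 64.3 CPM in shRNA control libraries, a log2 ratio of -0.62 (SE 0.40). Pecr had 30.7 and 22.7 CPM in vector and 17.5 and 16.9 CPM in shRNA control libraries, a log2 ratio of 0.63 (SE 0.29). Neither gene overlapped between the control groups. This comparison shares its vector libraries with the overexpression comparison and its shRNA control libraries with the knockdown comparison. Delivery by shRNA or vector cannot be told apart from the control groups.

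Other genes of the organelle were read from a list of 65, of which 58 had rows and 46 were tested. Their median log2 ratio was 0.14 in the knockdown and 0.26 in the overexpression, and edgeR and DESeq2 called 0 in both. At an unadjusted p under 0.05, 1 gene was higher and 0 lower in the knockdown, against 1.51% and 1.61% of all genes. In the overexpression 4 were higher and 0 lower, against 3.53% and 4.09%. In the knockdown 11 were higher and 3 lower without overlap, against 15.1% and 14.1% of all genes, and in the overexpression 19 and 6, against 24.3% and 23.1%. In empty vector against shRNA control, which shares libraries with both, 9 were higher and 21 lower, against 24.6% and 26.5%, with a median of -0.19. At an unadjusted p under 0.05, 1 was higher and 5 were lower there, against 6.45% and 6.1% of all genes. DESeq2 called 1 of this list between the controls, and 281 of all genes. Dhrs4, a peroxisomal reductase, had a log2 ratio of 0.50 (SE 0.21) in the knockdown. Acox2, the oxidase of bile acid intermediates, had 6.64 and 77.9 CPM in knockdown and 1.204 and 11.8 CPM in control libraries, which overlap. Mff, the adaptor that recruits the division enzyme to peroxisomes and mitochondria, had 143.9 and 138.4 CPM in overexpression and 89.5 and 92.4 CPM in vector libraries (log2 ratio 0.63, SE 0.17). Idh1, an NADPH-making dehydrogenase of peroxisome and cytosol, had 125.3 and 91.8 CPM in overexpression and 13.4 and 48.0 CPM in vector libraries. Among 19 tested genes of mitochondrial beta-oxidation the median was -0.015 in the knockdown and 0.17 in the overexpression, with 0 called by edgeR or DESeq2. At an unadjusted p under 0.05 there were 0 in the knockdown, against 1.51% higher and 1.61% lower of all genes. In the overexpression 1 was higher and 0 lower, against 3.53% and 4.09%. Ppara, the receptor best known for raising peroxisomal enzymes in rodent liver, had 0 to 1 count in every library, while Pparg was at 48.9 to 126.7 CPM. The 13 tested PPAR targets outside the peroxisome had a median log2 ratio of 0.29 in the knockdown. Without overlap 5 were higher and 0 lower there, against 15.1% and 14.1% of all genes. In the overexpression (median -0.20) 2 were higher and 4 lower, against 24.3% and 23.1%. In empty vector against shRNA control (median 0.62) 6 were higher and 3 lower, against 24.6% and 26.5%. Angptl4, an inhibitor of lipoprotein lipase, had 281.6 and 284.8 CPM in knockdown and 107.2 and 84.7 CPM in control libraries. Its log2 ratio was 1.56 (SE 0.36), with an adjusted p of 0.992 by edgeR and 0.0261 by DESeq2. Knockdown log2 ratios of the 13 ran from -0.35 to 1.99, with 9 above 0 and 4 below. Fabp4 and Cpt1a had the smallest p on the lower side. DESeq2 called 1 of the 13 in the knockdown, against 15 of all genes, and 1 between the controls, against 281. At an unadjusted p under 0.05, 4 were higher and 1 lower between the controls, against 6.45% and 6.1% of all genes.

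**Figure D5:**
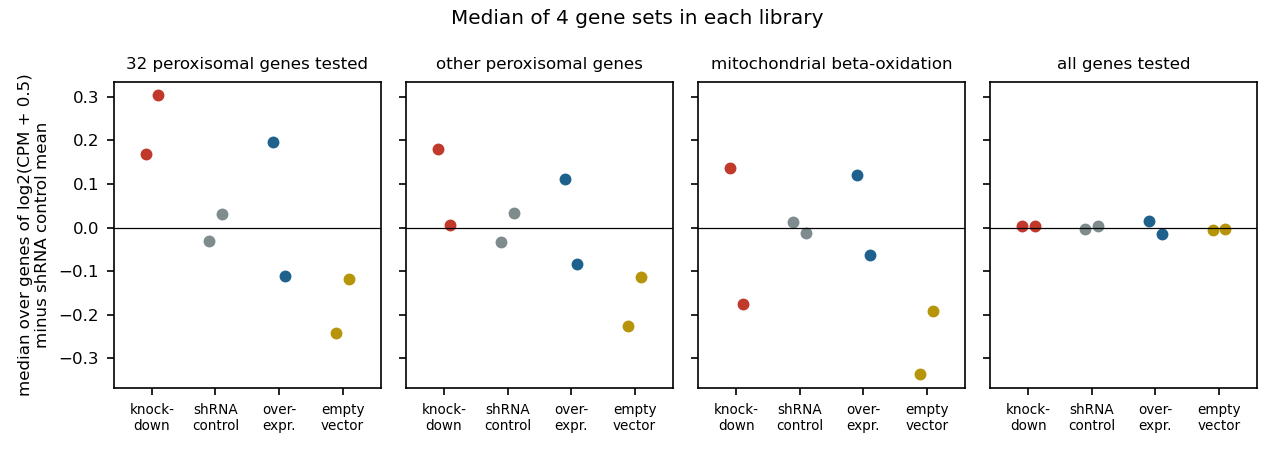
Median over genes of log2(CPM + 0.5) minus the shRNA control mean in each library (dots), for the 32 peroxisomal genes, the other peroxisomal genes, mitochondrial beta-oxidation and all genes tested. The peroxisomal median is 0.17 and 0.30 in the knockdown libraries, 0.20 and -0.11 in the overexpression libraries and -0.24 and -0.12 in the empty vector libraries.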

How the data were processed

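The files the authors deposited hold counts per gene, as whole numbers without normalization, and FPKM values of the same genes. Per the labels' protocols, TRIzol RNA went into stranded poly(A) libraries. HISAT2, HTSeq, Cufflinks, DESeq, Trimmomatic and build mm10 appear in the submitters' processing notes; versions, roles, annotation and strand setting: not given in the sources used here. Column names gave the group of all 8 columns.

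With filterByExpr (minimum count 10) 12115 genes were kept, and their counts were scaled with TMM factors and tested with edgeR's quasi-likelihood F-test in a single model of 4 groups (4 residual degrees of freedom, biological coefficient of variation 28%). Benjamini-Hochberg adjustment ran over all genes tested, with a threshold of 0.05. Ratios are knockdown over shRNA control, overexpression over empty vector and empty vector over shRNA control. "Non-overlap" means that both libraries of a group lie above, or both below, both of the other on TMM-scaled CPM. At this depth the spread between libraries, not counting, limits precision. Versions were edgeR 4.0.16 and DESeq2 1.42.0 under R 4.3.3, and pandas 2.3.3 under Python 3.11.15. The fit was also run on simulated counts with known changes. How many of those changes it recovered is not given here, so that run does not show what 0 calls can exclude.

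Genes and lists were chosen with earlier results of these data known. Named in full were genes without overlap and with an absolute log2 ratio of at least 0.5, the smallest p in each direction, the 3 highest and 3 lowest levels and genes failing the filter; of the other lists, some of the genes with the 2 smallest p in each direction. Other peroxisomal genes with printed values, among them Crot, Phyh and Pecr, were chosen after their values were seen. Targeting signals in the proteins were not analysed here.

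Alternatives were DESeq2, its size factors, no filter, 2 groups only, a block for the library number and leaving out each library.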

Additional observations from a re-analysis of the deposited data

How the results depend on the processing

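None of the 32 tested peroxisomal genes was called by edgeR or DESeq2 in any comparison under any alternative run, and no log2 ratio changed sign among the genes refitted under each alternative (Ech1, Ehhadh, Pex11a and Gnpat in the knockdown, Cat, Scp2, Eci2, Pex13 and Pex14 in the overexpression). Leaving out each library in turn, the median log2 ratio over the 32 genes ran between 0.17 and 0.32 in the knockdown (0.21 with all libraries), 0.015 and 0.21 in the overexpression (0.061) and -0.25 and -0.066 in empty vector against shRNA control (-0.18). Counts without overlap in the knockdown then ran between 19 and 23 higher and 1 and 5 lower. The shares of all genes were 26.2 to 38.4% higher and 27 to 39.4% lower. In the overexpression the counts were 9 to 17 higher and 8 to 10 lower, against 33.1 to 41.3% and 32.2 to 40.3% of all genes. Between the controls they were 10 to 12 higher and 11 to 17 lower, against 34.6 to 39.6% and 37.2 to 41.3%. Fewer libraries raise such counts by construction, also over all genes. With edgeR 0 of all genes were called in each comparison. DESeq2 called 15 in the knockdown, 1 in the overexpression, 281 between the controls and 14 for the difference of effects. Without a filter edgeR called 3 between the controls, and with only the 2 compared groups 1 in the overexpression and 128 between the controls. Leaving out a library gave 0 to 1 call in the knockdown, 0 to 25 in the overexpression, 0 to 97 between the controls and 0 to 1 for the difference; the cause was not tested. Libraries share only a number: deviations of same-numbered libraries correlated at 0.36 between knockdown and shRNA control and -0.22 between overexpression and vector. Between knockdown and empty vector, which were not compared, the correlation was -0.37, so these values do not show a pairing by number. With the library number as a replicate block, 0 of the 32 genes and 0 of all genes were called, and the medians were 0.21, 0.067 and -0.18 in the 3 comparisons of groups. With CPM per kilobase in place of FPKM, the levels of Gnpat, Ech1, Pex14, Pex26, Ehhadh and Abcd2 moved by less than their spread. The gene lengths used there were derived from the FPKM values themselves, so this closeness was built in and does not check the levels. With 2 libraries a group, differences below the spread between libraries could not be seen.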
